A study of Mus musculus with 19 samples.

Results

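The sites described here are cytidines in cytosolic transfer RNAs that are not tRNA-Ser, tRNA-Thr, tRNA-Arg or tRNA-Leu, which were left out as the families that hold the best known 3-methylcytidine (m3C) sites of cytosolic tRNA. They were taken from the deposited table of hydrazine-aniline cleavage sequencing (HAC-seq) by the tRNA name beside each cytidine, without any cutoff on the measured values, and mitochondrial tRNAs were left out. After repeated entries were dropped, 995 of 118890 sites were members. They lie in 177 tRNA genes with 27 anticodons and 18 amino acid names, tRNA-iMet and tRNA-SeC included, and 156 of them lie within another annotated gene. The excluded families hold 319 sites.

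The cells were neural progenitors of the mouse cerebral cortex, taken at embryonic day 17.5 and grown on Matrigel with bFGF and EGF. The groups were wild type (WT) and a conditional knockout (cKO) of the Mettl8 gene, and the study asked which m3C sites depend on this enzyme. HAC-seq was made from 8000 ng of total RNA of 4 WT and 3 cKO samples, and RNA-seq covered 6 samples of each genotype. Whether replicates came from separate cultures or animals is not said in the labels, and p-values then measure only the spread of these libraries, which may be technical. The sources used here give neither the Cre driver nor the allele, nor whether animals were pooled.

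A tRNA is transcribed with extra sequence at both ends. RNase P cuts away the leader at the 5′ end, tRNase Z cuts the trailer, and CCA is added to the 3′ end. The mature molecule folds into an acceptor stem, a D arm, an anticodon arm, a variable loop and a T arm. In the anticodon loop of cytosolic tRNA-Ser, tRNA-Thr and tRNA-Arg m3C is made by Mettl2 and Mettl6, and in mitochondrial tRNA by Mettl8. Hydrazine attacks m3C and aniline breaks the chain there, so that a read from a modified molecule starts 1 base downstream of the cytidine. The share of reads at a site that start there is called the cleavage ratio. Any other end of an RNA behind a cytidine enters the same ratio, and no untreated library was analysed here.

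Nucleotides are counted from the first base of the RefSeq tRNA gene on build GRCm38.p6, so that nucleotide 0 is the base just before the gene. A read that starts behind it begins at the first base of the gene, which is the mature 5′ end except in tRNA-His. Of the members, 978 could be placed on such a gene. Genes were 71 to 95 bases long, most often 72, and by this count the same structural position can lie at different numbers in different tRNAs. RefSeq promoter windows of the same build overlap 3 of these tRNA genes at listed sites, and these stretches are printed to show how sites lie in a gene, with the listed cytidines in capitals. The first stretch runs from 9 bases before nucleotide 0 of tRNA-His-GTG-2-5 (chr3:96452485-96452556, plus strand), the next likewise for tRNA-Asn-GTT-3-1 (chr1:171033969-171034025, minus strand), and the last covers nucleotides 41 to 74 of tRNA-Asn-GTT-3-8 (chr10:80249199-80249232, plus strand).
tRNA-His-GTG-2-5: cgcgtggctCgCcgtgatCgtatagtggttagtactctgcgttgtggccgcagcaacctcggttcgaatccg
tRNA-Asn-GTT-3-1: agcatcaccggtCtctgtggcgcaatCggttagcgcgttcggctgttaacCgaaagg
tRNA-Asn-GTT-3-8: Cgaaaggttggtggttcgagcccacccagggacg
All 7 listed sites in these stretches were a C in the sequence. The anticodon starts at nucleotide 34 in the histidine gene and at nucleotide 35 in the asparagine gene. Of the capitals in the histidine gene, that at nucleotide 0 carries a high cleavage ratio, 37.7% ± 4.09 (SD, n = 4) in WT. The next, at nucleotide 2, had 6.63% ± 2.01 (SD, n = 4). In tRNA-Asn-GTT-3-1 the 3 capitals, at nucleotides 3, 17 and 41, had 2.02%, 1.55% and 2.04% in WT.

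Most members were cleaved rarely. The mean ratio over the WT libraries was under 5% at 683 of the 995 sites, with a median of 2.95%, and above 50% at 26. Of these 26, 22 lay at nucleotide 0, where only 48 of the members lie. Inside the gene, 849 placed sites had a coverage of at least 50 reads in every library, and their WT median was 2.49%. Of those 849, 786 were under 10% and 24 were above 20%. The anticodon arm held the most members, 398, followed by the 5′ strand of the acceptor stem with 269 and the D arm with 203. Only 14 members lay in the T arm and 3 in the 3′ strand of the acceptor stem.

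**Figure D1:**
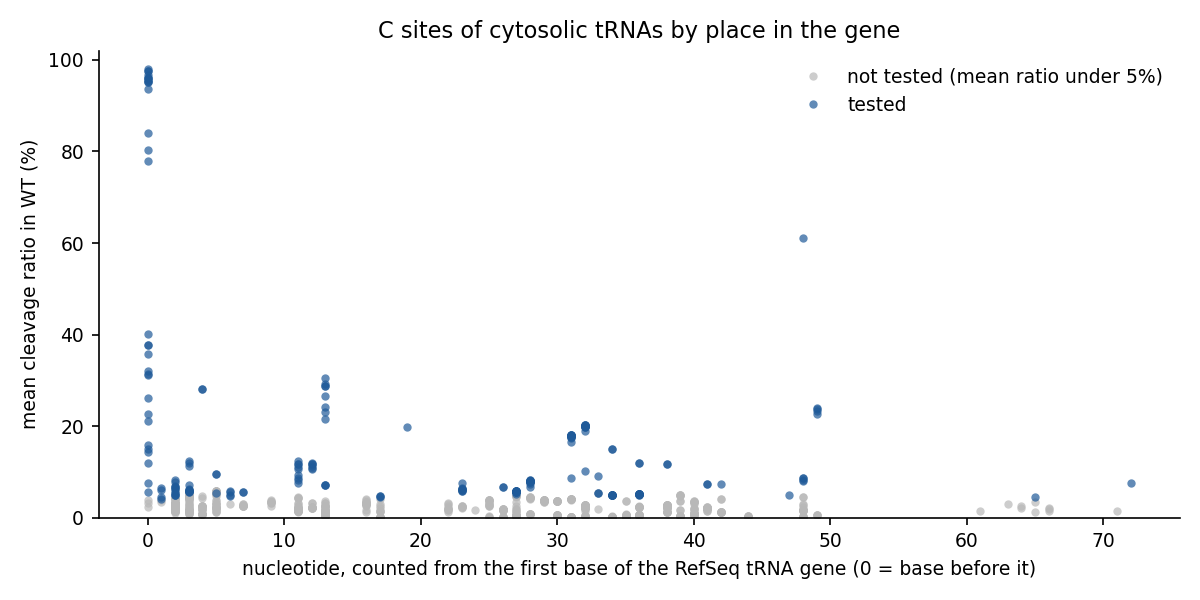
Mean cleavage ratio in the 4 WT libraries (vertical axis, percent) against the nucleotide of the site (horizontal axis), for placed sites with a coverage of at least 50 in every library. Each point is a site, blue where it was tested; the column at nucleotide 0 reaches 98.1%, and inside the gene a single point, tRNA-Glu-CTC-4-1 at nucleotide 48, lies above 50%.

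At nucleotide 0 the sites fell in separate ranges by tRNA. Sites were tested where coverage was at least 50 in each library and the mean ratio over all 7 libraries at least 0.05, which kept 31 of the 48. Of these, 15 lay between 78.0% and 98.1% in WT and belonged to tRNA-Glu (8), tRNA-Lys (4), tRNA-Asp (2) and tRNA-Gly (1). The other 16 lay between 5.69% and 40.1% and belonged to tRNA-His (8), tRNA-Pro (6), tRNA-Phe (1) and tRNA-Asn (1). No tested site lay between these ranges. The deepest of them was tRNA-Gly-GCC-3-1 (chromosome 1, position 74816818, minus strand) with 15016 to 25399 reads. Its WT libraries stood at 95.2%, 95.8%, 94.8% and 95.3%, and the cKO libraries at 96.2%, 96.0% and 95.6%. The libraries overlap, and the exact permutation p was 0.0857 (two-sided). For WT replicate 2 the 95% exact binomial interval of that share was 95.5% to 96.0%, which covers counting error only.

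Both genotypes showed this split. The 6 tested tRNA-Glu-CTC sites averaged 96.0% ± 0.20 (SD, n = 4) in WT against 96.1% ± 0.77 (SD, n = 3) in cKO. For tRNA-Lys-CTT the 4 sites averaged 96.1% ± 0.45 in WT and 96.3% ± 0.96 in cKO. tRNA-Glu-TTC, which reads the other glutamate codon, was lower, at 81.0% ± 1.83 in WT and 84.7% ± 3.47 in cKO over 2 sites. Of the 17 sites not tested, 14 had only 1 to 42 reads in their shallowest library. Of these, 7 were above 50% in WT, among them tRNA-iMet-CAT-1-3 at 84.2% and tRNA-Val-TAC-1-1 at 69.4%. Low values were also found in tRNA-Tyr, which carries an intron, at 3.92% in tRNA-Tyr-GTA-4-1 with at least 147 reads.

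Over the 31 tested sites at nucleotide 0 the WT libraries averaged 56.0%, 57.2%, 58.5% and 58.3%, and the cKO libraries 61.8%, 60.7% and 60.2%. Every cKO library was above every WT library. The means were 57.5% ± 1.16 (SD, n = 4) and 60.9% ± 0.83 (SD, n = 3), and 29 of the 31 sites had the higher mean in cKO, beside 61.4% of all tested sites. Sites are not replicates, so no p is given for such a mean. The difference was wider in the lower range, whose 16 sites averaged 24.2% ± 2.42 in WT and 29.9% ± 0.96 in cKO with all 16 higher. The 15 sites of the upper range averaged 93.1% ± 0.30 and 94.0% ± 0.69, with 13 higher. None of the 31 was called, that is, none had an adjusted p under 0.05 in the quasi-binomial fit described further on, beside 0% of all tested sites called higher in cKO and 0.00755% called lower.

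**Figure D2:**
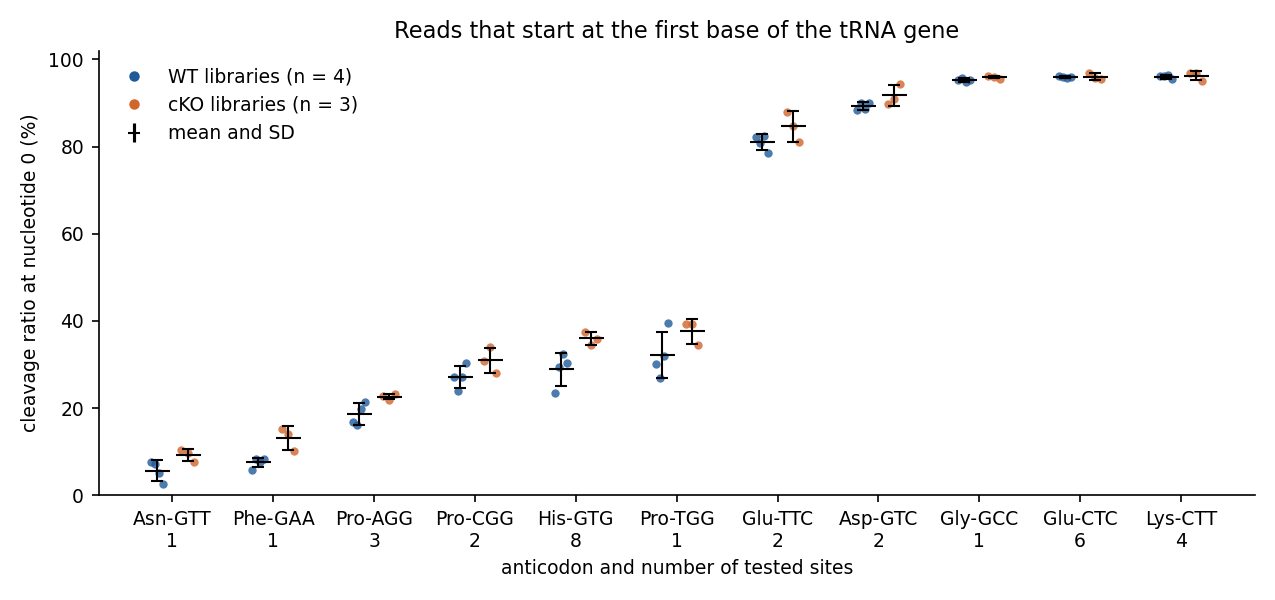
Cleavage ratio at nucleotide 0 (vertical axis, percent) by anticodon, with the number of tested sites under each name. Points are libraries (blue WT, orange cKO), each the mean over the sites; bars are mean and SD; anticodons from Asn-GTT to Pro-TGG lie at or below 40.1% and those from Glu-TTC to Lys-CTT at or above 78.0%.

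Among tested sites at nucleotide 0 the widest differences were in tRNA-His. It is the tRNA to which Thg1l adds a guanosine in front of the first base after the leader is cut off. In tRNA-His a read that starts behind nucleotide 0 therefore does not begin at the mature 5′ end. In tRNA-His-GTG-2-5 (chromosome 3, position 96452494, plus strand) the WT libraries stood at 31.8%, 39.1%, 41.3% and 38.5% and the cKO libraries at 48.9%, 44.9% and 48.1%, with 182 to 315 reads. No cKO library was as low as any WT library, with means of 37.7% ± 4.09 (SD, n = 4) and 47.3% ± 2.12 (SD, n = 3) and an exact permutation p of 0.0286 (two-sided), the smallest that 35 splits allow. The adjusted p of the quasi-binomial fit with limma over all tested sites was 0.57, so this difference did not pass the threshold. tRNA-His-GTG-2-6 had the same numbers in all libraries, so the reads of these copies cannot be told apart. Of the 8 tRNA-His sites, these 2 alone reached that permutation p, and tRNA-His-GTG-2-5 was chosen after its values were seen. tRNA-His-GTG-2-4, with 40.1% in WT and 50.3% in cKO, had an exact permutation p of 0.0571.

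Over all 8 tRNA-His genes the libraries stood at 23.6%, 29.5%, 32.3% and 30.3% in WT and at 37.6%, 34.6% and 35.97% in cKO. All 8 genes were higher in cKO, by 3.35 to 10.2 percentage points. The lowest WT library, replicate 1, moved this most: the difference of 7.12 points was 5.33 without it. The genes differed more from each other than the genotypes did, from 12.01% in tRNA-His-GTG-2-1 to 40.1% in tRNA-His-GTG-2-4. At nucleotide 2 of the same tRNA the 5 tested sites went the other way, with means of 6.41% ± 1.78 (SD, n = 4) for WT and 5.52% ± 0.65 (SD, n = 3) for cKO, a difference within the spread of the WT libraries.

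tRNA-Pro and tRNA-Phe had lower ratios. The 6 tested tRNA-Pro sites averaged 23.7% ± 2.92 (SD, n = 4) in WT against 27.9% ± 1.10 (SD, n = 3) in cKO, all 6 higher. The libraries of tRNA-Pro overlapped, with WT replicate 4 at 27.4% and cKO replicate 3 at 26.7%. In tRNA-Phe the tested site at nucleotide 0 stood at 5.93%, 8.27%, 7.74% and 8.28% in WT and at 15.3%, 14.1% and 10.2% in cKO, without overlap. Its coverage was only 92 to 187 reads. Next to the 5′ end of tRNA-Tyr, at nucleotide 1, the 4 tested sites averaged 5.35% ± 0.13 in WT and 7.34% ± 0.59 in cKO, again with every cKO library above every WT library. Of these 4 sites, the libraries did not overlap at 2, tRNA-Tyr-GTA-1-4 and tRNA-Tyr-GTA-1-5 (5.43% of all tested sites were higher without overlap), each with an adjusted p of 0.61 in the quasi-binomial fit and an exact permutation p of 0.0286.

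Inside the tRNA, the largest group of tested sites was the anticodon arm of tRNA-Asp-GTC. This tRNA is best known for a 5-methylcytidine made by Trdmt1 at nucleotide 38, a mark with another chemistry. Its 14 listed genes, all 72 bases long, hold 167 members, of which 68 in the anticodon arm were tested. At nucleotide 31 the mean over 14 gene copies was 21.1%, 17.1%, 16.3% and 14.1% in the WT libraries and 21.8%, 22.5% and 28.3% in the cKO libraries. At nucleotide 32 it was 20.8%, 20.6%, 19.4% and 16.4% in WT and 23.8%, 22.2% and 30.1% in cKO. All cKO libraries were above all WT libraries at both nucleotides. cKO replicate 3 was the highest and WT replicate 4 the lowest, and WT replicate 1 came within 1 point of cKO replicate 1 at nucleotide 31.

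The mean at nucleotide 31 was 17.1% ± 2.93 (SD, n = 4) in WT against 24.2% ± 3.61 (SD, n = 3) in cKO. At nucleotide 32 it was 19.3% ± 2.02 in WT and 25.4% ± 4.16 in cKO. Without cKO replicate 3 the difference at nucleotide 32 was 3.70 points in place of 6.06, and that at nucleotide 31 was 4.98 in place of 7.05. Lower ratios in the same arm also stood higher in cKO: 5.73% ± 2.73 against 9.26% ± 2.84 at nucleotide 27, 7.89% ± 1.33 against 10.03% ± 1.70 at nucleotide 28, and 5.13% ± 0.51 against 6.07% ± 0.97 at nucleotide 36. At those 3 nucleotides the genotypes overlapped. All 68 tested sites of the arm had the higher mean in cKO, 50 with an unadjusted p under 0.05 (73.5%, beside 6.62% of all tested sites higher at that p) and 0 with an adjusted p under 0.05 in the quasi-binomial fit. The ratio minimum was on the mean over both genotypes, so sites near 5% entered or dropped out partly by their cKO values. Of all 167 tRNA-Asp members, tested or not, 141 had the higher mean in cKO, against 70 of the 70 tested.

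**Figure D3:**
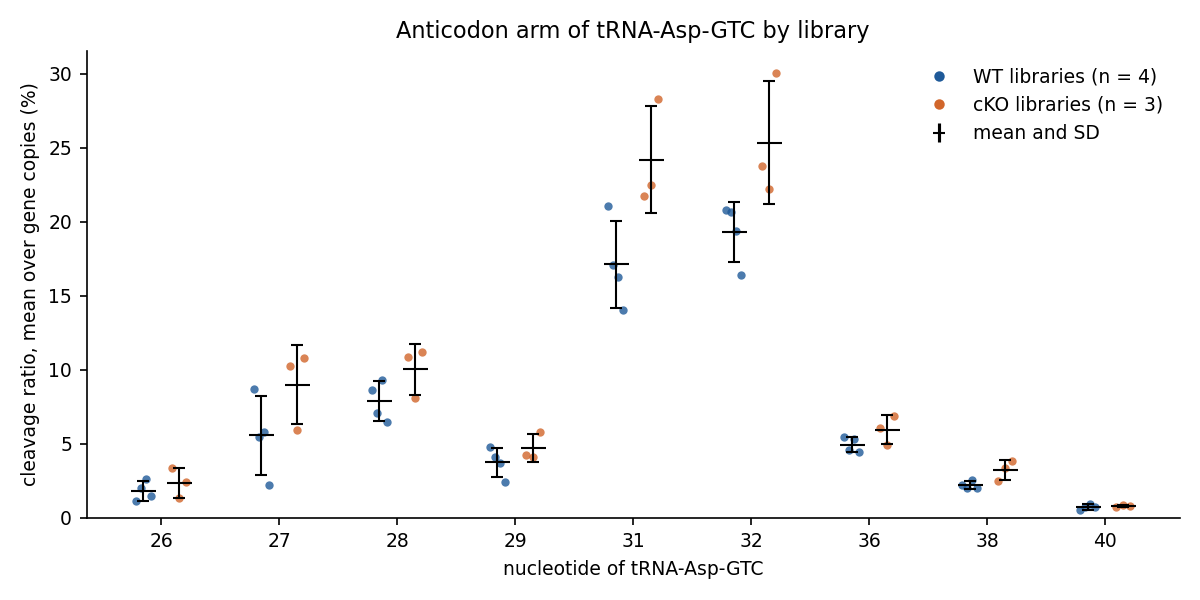
Cleavage ratio in the anticodon arm of tRNA-Asp-GTC (vertical axis, percent), by nucleotide, as the mean over its gene copies. Points are libraries (blue WT, orange cKO) and bars are mean and SD; nucleotides 31 and 32 stand out in both genotypes, with all 3 cKO libraries above the 4 WT libraries there.

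The gene copies carry nearly the same numbers, so the 68 sites are close to 5 nucleotides measured repeatedly. Of the 14 copies, 13 lay between 18.9% and 20.4% at nucleotide 32 in WT. The exception was tRNA-Asp-GTC-2-1 (chromosome 10, position 91182137, minus strand), at 10.3% ± 3.61 (SD, n = 4) in WT against 14.7% ± 5.44 (SD, n = 3) in cKO. Its libraries overlapped and the exact permutation p was 0.257. For tRNA-Asp-GTC-1-11 (chromosome 13, position 21911344, plus strand) the exact permutation p was 0.0286 and the adjusted p of the quasi-binomial fit was 0.52, with 807 to 1788 reads. The highest WT library at that site stood at 21.0% (95% exact binomial interval 18.6% to 23.6%) and the cKO libraries at 24.8% (22.3% to 27.4%), 22.7% (19.8% to 25.7%) and 30.6% (28.5% to 32.8%). The intervals of cKO replicates 1 and 2 thus overlapped that of the highest WT library.

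At nucleotides 3 and 5 of tRNA-Asp, in the acceptor stem, the means were lower in cKO, and at nucleotide 2 they were higher. At nucleotide 2 the 13 copies averaged 3.05% ± 0.70 (SD, n = 4) in WT against 3.41% ± 1.55 (SD, n = 3) in cKO, with overlapping libraries. At nucleotide 3 its 13 copies lay between 4.04% and 5.24% in WT and between 2.19% and 2.46% in cKO, with exact permutation p from 0.0286 to 0.171. At nucleotide 5 they lay between 5.21% and 5.97% in WT and between 3.26% and 3.64% in cKO, with exact permutation p from 0.0286 to 0.114. Averaged over the copies, the libraries of the genotypes overlapped at both nucleotides. At nucleotide 3 WT replicate 4 stood at 3.44% and cKO replicate 3 at 3.86%. At nucleotide 5 WT replicate 4 stood at 4.55% and cKO replicate 2 at 4.85%. Coverage was 100 to 272 reads at nucleotide 3 and 114 to 294 at nucleotide 5. The mean ratio of these copies over all libraries was under 5%, so they were not in the fit. At nucleotide 38 the 14 copies lay between 1.41% and 2.31% in WT and between 2.13% and 3.34% in cKO (exact permutation p 0.0571 to 0.229).

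Nucleotide 32, by the usual numbering of tRNA, is the place of m3C in tRNA-Ser, tRNA-Thr and tRNA-Arg. Among the members, 37 sites with 6 anticodons lay at number 32 of the count from the gene start. That is not the same place in every tRNA. In tRNA-Asn-GTT-3-1 the base 2 before the anticodon is a C at nucleotide 33, so the search at number 32 leaves out such tRNAs. Outside tRNA-Asp there were 23, none of them with a mean ratio of at least 5%. The 9 tRNA-Glu-CTC copies were the highest of these, at 2.67% to 2.75% in WT and 3.23% to 3.34% in cKO with at least 2354 reads. The 7 tRNA-Gly-TCC copies lay at 2.01% to 2.08% in WT and 2.21% to 2.27% in cKO. The initiator tRNA-iMet-CAT-1-1 stood at 1.39% and 1.13%, and the tRNA-Gln-CTG copies at 0.332% to 0.459% and 0.248% to 0.292%. In tRNA-Tyr-GTA-3-1, with an intron behind the anticodon, the site stood at 0.512% and 0.165%. No site was listed at nucleotide 20 of the elongator tRNA-Met.

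Elsewhere in the anticodon arm, ratios differed between gene copies as well as between nucleotides. In tRNA-Glu-CTC nucleotide 34, the first of the anticodon by this count, had 5.01% ± 0.70 (SD, n = 4) in WT against 5.97% ± 0.29 (SD, n = 3) in cKO over 9 copies, with overlapping libraries. In tRNA-Glu-TTC the pair of copies tRNA-Glu-TTC-3-1 and tRNA-Glu-TTC-3-2 averaged 12.1% ± 1.51 in WT and 15.6% ± 4.81 in cKO at nucleotide 36, at 555 to 1209 reads. The same nucleotide in tRNA-Glu-TTC-1-1 was at 0.524% with at least 9403 reads, and in tRNA-Glu-TTC-2-1 at 0.31%. At nucleotide 38 these pairs differed likewise, 11.7% in tRNA-Glu-TTC-3-1 against 1.30% in tRNA-Glu-TTC-1-1. The genotypes overlapped at nucleotide 36, while cKO replicate 1 alone reached 20.2%. The difference there, 3.52 points, was 1.22 without cKO replicate 1 and 6.01 without cKO replicate 2.

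The lowest mean ratios of the anticodon arm, in either genotype, were in tRNA-Gly-GCC, the tRNA with the most reads. Its 59 anticodon arm sites lay between 0.0313% and 0.637% in WT and between 0.0198% and 0.736% in cKO, at 4343 to 32910 reads. In tRNA-Gly-CCC the ratio was 15.0% ± 2.82 (SD, n = 4) in WT against 14.5% ± 1.98 (SD, n = 3) in cKO at nucleotide 34, with 232 to 503 reads.

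In the acceptor stem and D arm, differences between the genotypes were small and went both ways. The 40 tested sites of the 5′ acceptor strand averaged 7.65% ± 0.41 (SD, n = 4) in WT against 7.37% ± 0.33 (SD, n = 3) in cKO, with 17 higher. At nucleotide 3 of tRNA-Lys-CTT all 7 tested copies were lower in cKO, 5.85% ± 1.47 against 4.10% ± 1.10, with overlapping libraries, and the difference of -1.75 points was -1.14 without WT replicate 4. At nucleotide 5 of tRNA-Gly-CCC-1-1 (chromosome 6, position 86403897, plus strand) the WT libraries stood at 7.02%, 9.46%, 9.82% and 11.96% and the cKO libraries at 6.56%, 4.84% and 6.49%. There the cKO libraries lay below all WT libraries (exact permutation p = 0.0571, adjusted p = 0.68 in the quasi-binomial fit), at a coverage of 57 to 112 reads.

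The 39 tested D arm sites averaged 12.4% ± 0.99 in WT and 12.9% ± 0.75 in cKO, with 19 higher. The highest were in the initiator tRNA, tRNA-iMet-CAT, which starts translation. Its 8 copies at nucleotide 13 averaged 26.1%, 22.6%, 29.4% and 28.5% in WT and 31.2%, 21.5% and 27.5% in cKO. The means, 26.6% ± 3.06 (SD, n = 4) and 26.7% ± 4.88 (SD, n = 3), differed by far less than the libraries. Nucleotide 11 of the same tRNA stood at 10.1% ± 4.06 and 9.36% ± 3.67. In tRNA-Glu-TTC nucleotide 12 averaged 11.4% ± 1.52 (WT) and 9.88% ± 1.72 (cKO) over 6 copies, all lower. That difference, -1.53 points, was -0.79 without WT replicate 1, -2.44 without cKO replicate 1 and -0.72 without cKO replicate 2. Nucleotide 13 of tRNA-Gly-CCC averaged 7.16% ± 0.54 (WT) and 9.77% ± 2.28 (cKO) over 3 copies with 1129 to 2747 reads. Without cKO replicate 1 the cKO mean was 8.59% and the difference 1.42 points in place of 2.61. In tRNA-Gln-CTG nucleotide 23 stood at 6.30% ± 1.66 and 8.03% ± 1.11 over 9 copies, all higher, with overlapping libraries. That difference, 1.74 points, was 1.06 without WT replicate 1 and 1.10 without cKO replicate 1.

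The remaining tRNAs are given by their highest tested site. In tRNA-Gln-CTG-5-1 that was nucleotide 19 of the D arm, at 19.7% ± 6.22 (SD, n = 4) in WT against 22.3% ± 8.82 (SD, n = 3) in cKO. tRNA-Phe-GAA-1-4 had 12.3% and 10.4% at nucleotide 3, tRNA-Ile-AAT-1-6 had 12.4% and 11.3% at nucleotide 11, tRNA-Tyr-GTA-2-1 had 7.62% and 8.57% at nucleotide 72, and tRNA-Ala-CGC-2-1 had 4.59% and 6.38% at nucleotide 65. For tRNA-Asn it was nucleotide 0 of tRNA-Asn-GTT-3-8, within the gene Ndufs7, at 5.69% and 9.26%. None of these 6 sites separated the genotypes, with exact permutation p from 0.143 to 0.771. tRNA-Cys (12 members), tRNA-Met (8), tRNA-Val (6) and tRNA-Trp (4) had no tested site, tRNA-Cys with a WT median of 1.82%.

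Behind the anticodon few sites were tested. The single member of tRNA-Glu-CTC-4-1 (chromosome 12, position 42415099, minus strand), at nucleotide 48 in the variable loop, had 61.2%, 53.9%, 73.2% and 56.1% in WT and 57.02%, 63.5% and 52.8% in cKO. The libraries overlap (61.1% ± 8.60 against 57.8% ± 5.36, exact permutation p = 0.629). It rests on 52 to 114 reads, and the share of WT replicate 2 had an exact 95% interval of 42.1% to 65.5%. The same nucleotide in the other 9 tRNA-Glu-CTC genes lay between 1.54% and 1.62% with at least 2254 reads. In tRNA-Lys-TTT nucleotide 49 averaged 23.5% ± 4.74 (SD, n = 4) in WT against 26.9% ± 3.54 (SD, n = 3) in cKO over 4 copies, and nucleotide 48 averaged 8.49% ± 3.71 and 9.10% ± 4.79. Both overlapped between the genotypes.

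The selenocysteine tRNA, which reads a stop codon as selenocysteine, could not be numbered because the RefSeq table lists no gene at its place. Its highest site, chromosome 7, position 19301243, plus strand, had 99.1%, 100%, 98.6% and 98.5% in WT and 96.2%, 94.0% and 97.8% in cKO, with 67 to 138 reads. All cKO libraries were lower, 96.0% against 99.03%, with an exact permutation p of 0.0286 and an adjusted p of 0.57 in the quasi-binomial fit. Of the tested members only this site and a pair of tRNA-Gly-CCC copies had every cKO library below every WT library. Together they are 1.37% of the tested members, beside 2.03% of all tested sites. At the next listed cytidines, positions 19301245 and 19301246, the ratio was 44.5% and 43.5% in WT and 46.8% and 43.1% in cKO.

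The comparison over all members used a quasi-binomial model per site, with the dispersion moderated across all tested sites of the table by limma and Benjamini-Hochberg adjustment over all 13240. Of the 995 members, 219 met the coverage and ratio minimums. A total of 0 were called at an adjusted p under 0.05, in either direction, against 0.00755% of all tested sites called lower in cKO and 0% called higher. The smallest adjusted p of a member was 0.518. At an unadjusted p under 0.05, 74 members were higher and 1 was lower, so 33.8% and 0.457% of those tested, beside 6.62% and 2.02% of all tested sites. The ratio minimum used both genotypes, so cKO values partly decided which sites near 5% were tested. tRNA-Ala-CGC-2-1 entered with 4.59% in WT and 6.38% in cKO. Nucleotide 5 of tRNA-Asp dropped out with 5.21% to 5.97% in WT and 3.26% to 3.64% in cKO. This limit holds for all counts of higher and lower members. The count of 74 depended on the libraries and the test. It was 78, 45, 64 and 43 without WT replicates 1, 2, 3 and 4 in turn. Without cKO replicates 1, 2 and 3 in turn it was 47, 90 and 43, and with limma on arcsine-transformed ratios 33. No member was called in any of these.

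The mean ratio was higher in cKO at 167 of the 219, or 76.3%, beside 61.4% of all tested sites. All cKO libraries were above all WT libraries at 41 members (18.7%, beside 5.43% of all tested sites) and below at 3 (1.37%, beside 2.03%). Of those 41, 26 were nucleotides 31 and 32 of tRNA-Asp-GTC and 5 were nucleotide 0 of tRNA-His. Of the 74, 50 lay in the tRNA-Asp anticodon arm, 9 in tRNA-Glu-CTC and 5 in tRNA-His. Among the other 151 tested members 24 were higher (15.9%) and 1 was lower (0.662%) at an unadjusted p under 0.05 in the quasi-binomial fit. Of all tested sites 6.62% and 2.02% were. The median difference of these 151 was 0.77 points, against 3.51 points in the tRNA-Asp arm and 0.57 points over all tested sites. With 1 site kept per anticodon and nucleotide, a choice made after the data were seen, 58 sites remained, of which 12 were higher at an unadjusted p under 0.05 and 0 were called.

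**Figure D4:**
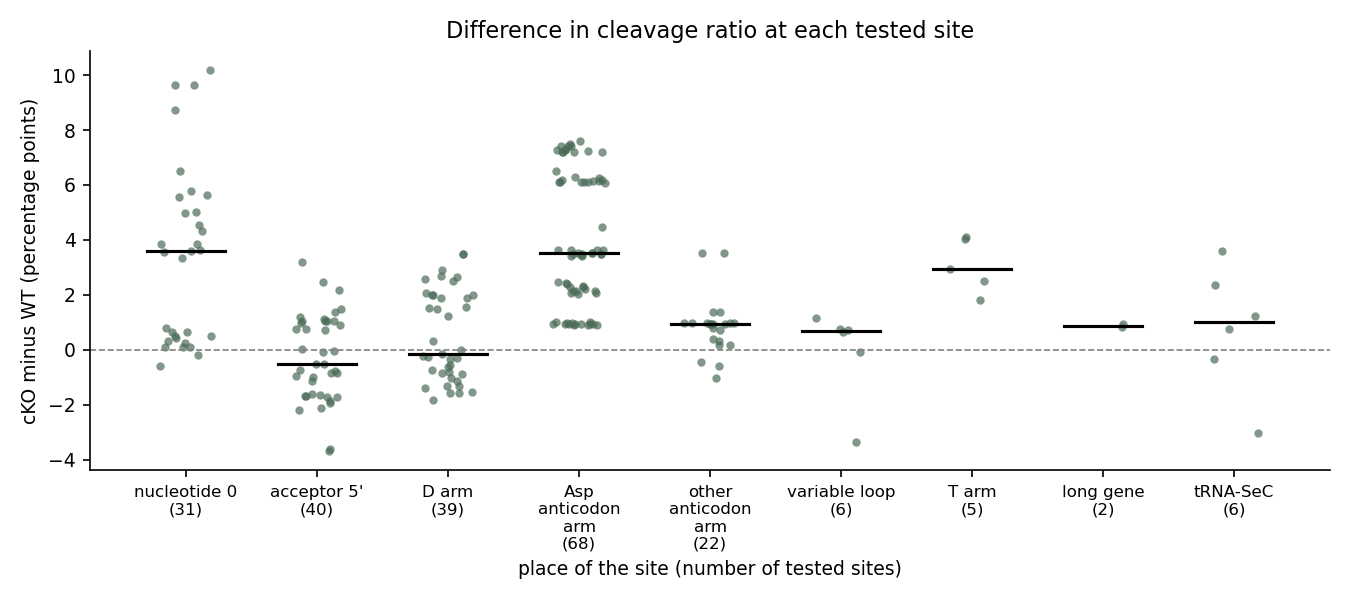
Difference in mean cleavage ratio, cKO minus WT in percentage points (vertical axis), for each of the 219 tested sites by place in the tRNA, with the number of sites in brackets. Each point is a site and black lines are medians; the tRNA-Asp anticodon arm (median 3.51) and nucleotide 0 (median 3.61) lie above 0, while the 5′ acceptor strand (median -0.52) and D arm (median -0.14) lie around it.

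Averaged over the 219 sites, the WT libraries stood at 18.0%, 18.2%, 18.5% and 17.5% and the cKO libraries at 20.4%, 19.0% and 20.5%, without overlap. The means were 18.1% ± 0.44 (SD, n = 4) and 20.0% ± 0.84 (SD, n = 3), 1.95 points apart. Without tRNA-Asp the difference was 1.01 points. When read starts were summed over sites and divided by summed coverage, which weights deep sites, it was -0.75 points, so the direction of this mean depends on the weighting. The weights there are each library's own coverage, so that value also moves with shifts in read depth between sites. With every site weighted alike and a coverage of at least 100, the difference was 2.3 points. The tested sites of the 4 families left out averaged 16.7% in WT and 18.0% in cKO. Of these 75 sites, 49 had the higher mean in cKO (65.3%, beside 61.4% of all tested sites), and the median difference was 0.82 points. At an unadjusted p under 0.05 in the quasi-binomial fit, 3 were higher (4%) and 4 were lower (5.33%). Of all tested sites 6.62% and 2.02% were. At nucleotide 0 their 5 listed sites stood at 58.6% ± 3.16 and 59.9% ± 1.71, at a coverage of 8 to 62 reads. The difference between these families and the members was not tested.

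Read depth over the members differed between the genotypes in some tRNAs, a comparison made without a test. Coverage was scaled by the median ratio over all tested sites, whose median log2 difference, cKO over WT, was 0.0024. The median log2 difference was 0.51 over tRNA-Glu-TTC sites, 0.50 over tRNA-Gln-CTG and 0.46 over tRNA-Glu-CTC, against 0.18 over all members, 0.05 for tRNA-Gly-GCC and 0.02 for tRNA-His. For tRNA-Glu-TTC the scaled medians were 4285, 6147, 6628 and 5933 reads in the WT libraries and 9333, 6084 and 9076 in cKO, so that cKO replicate 2 lay among the WT libraries. The same held for tRNA-Gln-CTG, with cKO replicate 2 at 886.7 and the WT libraries at 385.7 to 1028. In tRNA-Glu-CTC it stood at 2855, and the WT libraries at 2257 to 3292. The median log2 difference of tRNA-Asp was 0.18. In bulk libraries fewer cells of a type and less RNA per cell cannot be told apart, and the part of depth in the ratios was not tested.

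The genes that modify tRNA cytidines and their neighbours were read in the RNA-seq libraries labelled WT and cKO. Of 20 listed genes all were measured, 2 of them under an older symbol, and 0 were called by edgeR's quasi-likelihood test (0 at an unadjusted p under 0.05), beside 0% of all 13105 genes called and 6.14% at an unadjusted p under 0.05. Their median log2 fold change was -0.01, with 8 of 20 above 0. The methyltransferase Mettl2, which makes m3C in cytosolic tRNA-Thr and tRNA-Arg, was measured at 15.8 ± 3.63 CPM (SD, n = 6) in WT against 16.5 ± 3.33 in cKO. Mettl6, its counterpart for tRNA-Ser, stood at 103 ± 11.3 and 101.7 ± 6.62 CPM. Trdmt1, which acts on tRNA-Asp, was at 16.4 ± 1.87 and 18.2 ± 4.73 CPM, and Nsun2, which makes 5-methylcytidine in many tRNAs, at 41.75 ± 11.4 and 44.8 ± 13.6 CPM. These means and SDs pool 2 library sets, which hold the genotypes in unequal numbers. With the set in the fit, the log2 fold changes were -0.007 for Mettl2, -0.048 for Mettl6, 0.063 for Trdmt1 and -0.054 for Nsun2. The widest estimate was that of the dihydrouridine synthase Dus4l, a log2 fold change of -0.26 (SE 0.21, edgeR adjusted p = 0.88).

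Depth and labels were checked over the whole series. Median coverage of the members was 486 to 764 reads in the 7 HAC-seq libraries, and RNA-seq libraries held 11830839 to 18863781 counts. The site in mitochondrial mt-Tt that Mettl8 modifies (chromosome MT, position 15317) was cleaved at 93.7% to 94.7% in the WT and 1.70% to 2.51% in the cKO HAC-seq libraries. Mettl8 transcripts themselves were not lower in the RNA-seq libraries labelled cKO, with 59.3 to 80.9 CPM against 35.9 to 58.6 CPM in WT (edgeR adjusted p = 0.265). The sources used here do not say where the deleted part of the gene lies, so counts over the whole gene do not check those labels. The progenitor markers Sox2, Nes, Pax6, Vim, Hes5, Fabp7 and Mki67 were present in every RNA-seq library, the lowest being Hes5 at 9.64 to 33.0 CPM. The neuronal markers differed: Dcx was at 56.3 to 110 CPM, Tubb3 at 25 to 61.2, Snap25 at 24.5 to 71.5 and Rbfox3 at only 0 to 1.33. Those of microglia and meningeal fibroblasts were at or near 0, as were Cldn5 and Cdh5 of endothelium, with Pecam1 at no more than 2.12 CPM.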

How the data were processed

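HAC-seq and RNA-seq were compared between WT and cKO. The submitters' processing notes name STAR 2.5.2a, Trimmomatic 0.32, bcl2fastq 2.17.1.14 and mouse builds GRCm38 and GRCm38.p6. How reads of identical tRNA copies were assigned is not given in the sources used. The deposited HAC-seq table gives, per cytidine and library, the read starts 1 base downstream as a signal, the count of all reads covering it, their quotient as a fraction and a p-value whose test is not named and which was not used. The authors list a site only with at least 2 such starts in each WT library, so sites without starts in WT are not seen. The deposited RNA-seq table holds raw counts per gene.

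Repeated entries (16692) were dropped and ratios are printed as percentages. Sites with at least 50 reads in each of 7 libraries and a mean ratio from 0.05 upwards entered a quasi-binomial model in R 4.3.3, with dispersions moderated by limma 3.58.1 and kept at 1 or more, a two-sided F test on genotype and Benjamini-Hochberg adjustment over 13240 sites. Single sites were also compared by exact permutation over 35 splits. RNA-seq counts were tested with edgeR 4.0.16 (filterByExpr, TMM, library set as covariate), with DESeq2 1.42.0 as an alternative. Fits were tested on simulated data. Sites were named by rule: the highest tested site per amino acid, those above 50% in WT, the 5 smallest p in each direction, and nucleotide 32; other sites were chosen after their values were seen, through means per anticodon and nucleotide. The members and lists were chosen with earlier results of these data known. Of the columns of the tables, 0 were left out. Python 3.11.15 drew the figures. Part of the marker check is not reported here.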

Additional observations from a re-analysis of the deposited data

Results flagged for a closer look

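Among 152 groups of libraries looked at, 5 had a sample far from the others, where chance flags about 5% of groups. In HAC-seq only the WT libraries were looked at, so no cKO library could be flagged there. In RNA-seq both genotypes were. At nucleotide 0 of tRNA-Glu-TTC-2-1 (position 34434884) 1 WT library stood at 80%, and the other WT libraries at 77.3% to 77.4%. Over the tested members inside the gene 1 WT library averaged 9.81% against at least 10.9% in the others. Over the tested tRNA-SeC sites, which are also the tested sites that could not be placed, 1 WT library averaged 40.4% against 38.3% to 38.5%. Over the 2 tested sites behind the anticodon of long genes 1 WT library averaged 10.02% against 6.40% to 6.99%. No gene of the RNA-seq list was among them, and no cause was tested.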

How the results depend on the processing

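The number of members called stayed at 0 in both directions under every alternative run, with a smallest adjusted p of 0.0868 (without cKO replicate 2). At an unadjusted p under 0.05 the count of higher members, 74, was 164 with a mean ratio of at least 0.01, 35 with at least 0.1, 33 with limma on the arcsine square root and 41 with the replicate block. Same-numbered libraries deviated together with correlations of only -0.0177 to 0.0355 in HAC-seq and -0.0486 to 0.172 in RNA-seq. With so few libraries this cannot show whether the numbers pair samples. The counts of called sites and listed genes, 0 without the replicate block, were also 0 with it and could not have fallen. The mean difference over members, 1.95 points, was 0.682 with a mean ratio of at least 0.01, 2.94 with at least 0.1, -0.755 with summed starts over summed coverage, 1.24 with 1 site per anticodon and nucleotide, and 1.01 without tRNA-Asp, the last pair of choices made after the data were seen. With the replicate block it was 1.75. The RNA-seq list kept 0 called genes under every alternative run.

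Of 35 named sites recomputed, 13 changed sign when a library was left out, and 0 were called. In points, cKO minus WT, they ranged from -2.38 to 6.08 for tRNA-Gln-CTG-5-1, -0.441 to 0.546 for tRNA-Glu-CTC-1-1, -0.44 to 0.548 for tRNA-Glu-CTC-1-2, -0.438 to 0.55 for tRNA-Glu-CTC-1-3, -0.0257 to 0.428 for tRNA-Glu-CTC-1-4, -0.812 to 1.04 for tRNA-Glu-CTC-2-1, -6.18 to 0.682 for tRNA-Glu-CTC-4-1, -0.636 to 2.0 for tRNA-Glu-TTC-1-4, -4.27 to 2.32 for tRNA-Ile-AAT-1-6, -1.61 to 0.918 for tRNA-Lys-CTT-3-3, -0.229 to 1.16 for tRNA-Lys-CTT-3-7, -0.767 to 1.98 for tRNA-Tyr-GTA-2-1 and -2.32 to 2.54 for tRNA-iMet-CAT-1-3. With the replicate block tRNA-Glu-TTC-1-4 stood at -0.636 and tRNA-iMet-CAT-1-3 at 0.137. The cause was not tested. Depth limits nucleotide 0, where 14 of the 17 untested sites fell below the coverage minimum. Behind the anticodon 7 of the 47 untested sites did, and the others had too low a ratio.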
